A study of Mus musculus with 10 samples.

Results

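Chemokines and chemokine receptors were followed through the establishment of mouse spermatogonial stem cell cultures. Members were the genes with an array annotation of exactly 1 symbol, where that symbol names a CC, CXC, XC or CX3C chemokine or one of their receptors, and each gene was represented by its brightest transcript cluster. There were 52 such genes, 33 ligands and 19 receptors, of 20174 genes measured. The study hybridized RNA of 10 samples, 2 for each of 5 groups. The 0 week group was adult DBA/2 testis cells purified on magnetic beads through CD9, which spermatogonial stem cells carry on their surface but not they alone. The 1, 2 and 3 week groups were such cells after that time in an Iscove-based medium with GDNF, FGF2 and a little serum. The last group was GS (germline stem) cells, a line of cultured spermatogonial stem cells that was already established, also of DBA/2 origin. All groups share the strain, and the same medium is described for every group. Whether the GS cells were grown on feeder cells, a layer of other cells that supports a culture, is not stated in the sources used here. No label says how many animals were pooled, or whether the 2 arrays of a group are separate cultures, so the spread behind each p-value is that between these arrays and may be technical.

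Chemokines are small secreted proteins that attract cells along a concentration gradient. They are grouped by the spacing of their first cysteines (CC, CXC, XC, CX3C) and act on receptors coupled to inhibitory G proteins. CXC ligands with a Glu-Leu-Arg motif attract neutrophils through Cxcr2, Ccl2 and Ccl7 attract monocytes through Ccr2, and Cxcl9, Cxcl10 and Cxcl11 are induced by interferon and attract T cells through Cxcr3. Stromal cells make many inflammatory chemokines when NF-kB is active. In the mouse testis, Cxcl12 and its receptor Cxcr4 take part in the maintenance and homing of spermatogonial stem cells.

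Signals are linear array intensities with no background level given. Array medians ranged over 112 to 125.3 and lower quartiles over 59.5 to 73.7, so a member around or below that quartile is not shown to be above background. Replicate arrays correlated at r = 0.991 to 0.998 across genes, which are not independent replicates, against at most 0.984 between groups. All samples carry the cell type label of spermatogonial stem cells. Signals summed over 13 spermatid markers were 919 to 1563 on all cultured arrays, against 49056 and 51267 on the 0 week arrays. Signals summed over 20 markers of undifferentiated spermatogonia were 14302 and 14307 in GS cells and 4931 and 5039 at 1 week, against 3674 and 3676 at 0 weeks. The number of arrays limits the precision. A member passed in a comparison when its limma p-value, adjusted over all 20174 genes, was under 0.05.

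The chemokine system changed mainly through a subset of ligands. Over the first week of culture 11 ligands rose at least 2-fold, all of them fell again in the second week, and 6 of them were at least 2-fold higher in established GS cells than at 3 weeks. Ccl3 fell in the first week and was high in the sorted cells alone. Receptors varied little. Of the 52 members, 36 differed somewhere among the 5 groups by the F-test, while 74.7% of all genes did, so this count is close to the background. The highest group mean lay at 1 week for 21 members (40.4%, against 24.8% of all genes), 18 of them ligands, and at 3 weeks for 23 members (44.2%, against 30.1% of all genes). It lay at 0 weeks for 5, in GS cells for 2 and at 2 weeks for 1 (20.5%, 17.4% and 7.19% of all genes). The lowest group mean lay at 1 week for 24 members. Array lower quartiles were highest at 3 weeks (73.7 and 70.6), against 62.5 and 59.5 at 1 week. These counts were made on the deposited scaling only, and the part of the array level in them was not tested. In 27 members no group mean exceeded the highest array median, and 15 of these stayed at or below the highest lower quartile in every group.

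**Figure D1:**
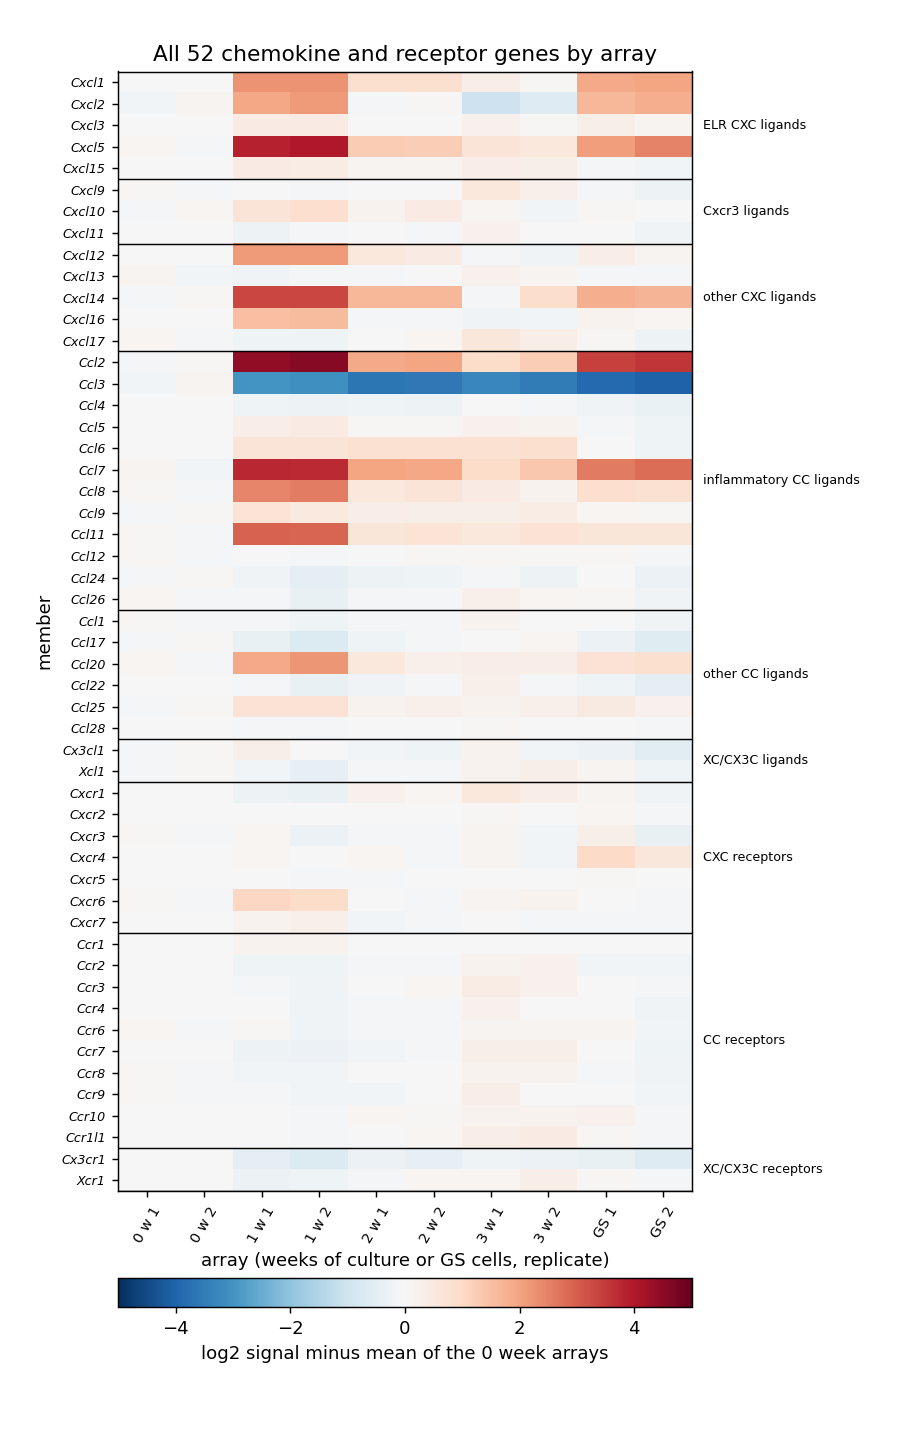
Each row is 1 of the 52 members and each column 1 of the 10 arrays, and the colour gives the log2 signal minus the mean of the 0 week arrays. The strongest reds lie in ligand rows at 1 week, with further reds in part of these rows in GS cells and, for Ccl2, Ccl7 and Cxcl14, at 2 weeks, and Ccl3 is blue in all cultures, while the 19 receptor rows stay pale except Cxcr6 at 1 week and Cxcr4 in GS cells.

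Over the first week 21 members rose and 9 fell in 1 week cultures against 0 week cells, while 30.3% of all genes rose and 27.5% fell. Rises of at least 2-fold were found in 11 members, all ligands (21.2% of the members, against 12.5% of all genes). A fall of that size was found in 1, Ccl3 (1.92%, against 9.85%). The median change over the members was -0.04 on the log2 scale, as it was over all genes (-0.04). Among 33 ligands 18 rose, 4 fell and 11 did not pass, and among 19 receptors 3 rose, 5 fell and 11 did not pass. The falls other than that of Ccl3 were small, -0.20 to -0.55, and their number depended on scaling and on single arrays. With quantile scaling 21 members rose and 4 fell, and with median scaling 21 rose and 3 fell. Leaving out the first or second 0 week array left 4 or 5 falls, and leaving out the second 1 week array left 3.

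**Figure D2:**
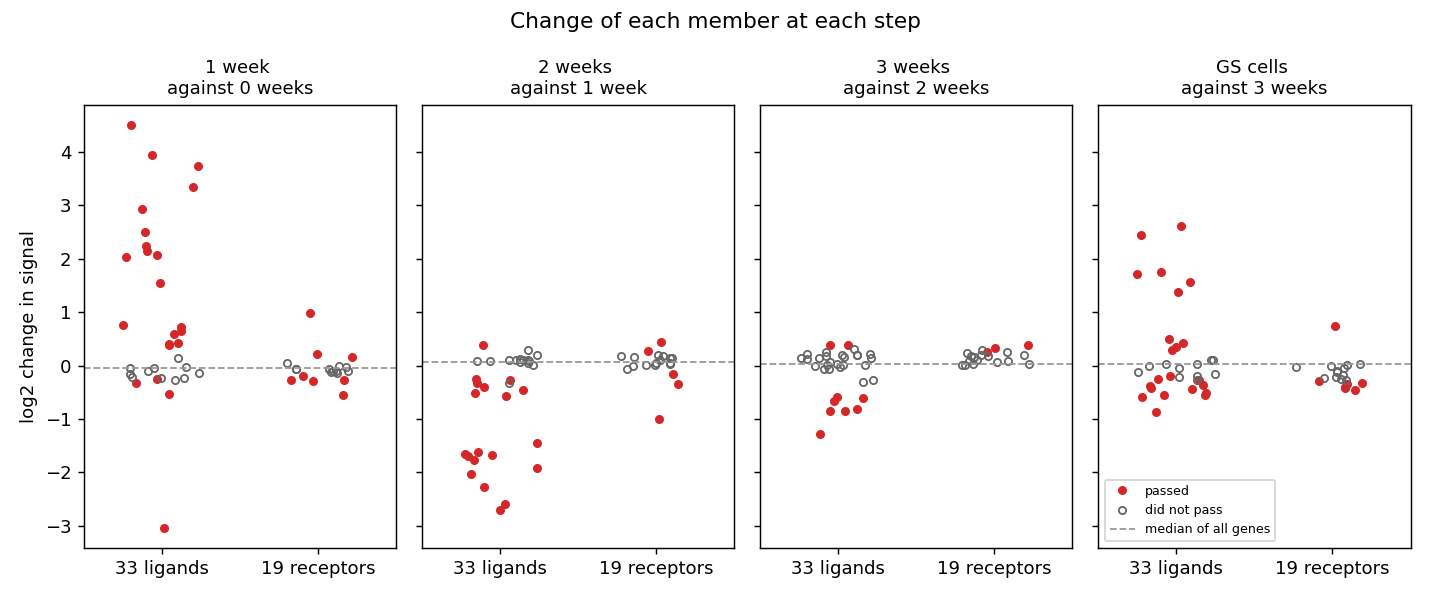
Each point is 1 member, its height the log2 change in signal at a step (later group over earlier), with filled points for members that passed and a dashed line at the median of all genes. Ligands spread from -3.03 to 4.50 at 1 week, downwards to -2.69 at 2 weeks and upwards to 2.61 in GS cells, while receptors stayed between -1.01 and 0.99.

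All 5 members that are CXC ligands with a Glu-Leu-Arg motif rose in the first week. Cxcl5 read 53.8 and 46.9 at 0 weeks, 728 and 812 at 1 week, 121 and 117 at 2 weeks, 78.8 and 71.9 at 3 weeks, and 213 and 284 in GS cells. Both 1 week arrays thus lay far above all others, and the 0 week signals were below the array quartile. Its change was 3.94 ± 0.13 (log2 change ± SE, n = 2 arrays per group, limma adjusted p = 2.59e-09), which can only be read as at least this large, since the 0 week signals are not shown to be above background. Cxcl1, the classical neutrophil attractant of mouse stroma, read 202 and 205 at 0 weeks, 964 and 956 at 1 week, 351 and 354 at 2 weeks, 253 and 215 at 3 weeks, and 763 and 798 in GS cells. It rose by 2.24 ± 0.08 (adjusted p = 5.32e-09), and the 1 week and GS arrays formed a high pair of groups with no overlap with the rest. Cxcl2, a close paralog that also acts on Cxcr2, read 133 and 165 at 0 weeks, 567 and 652 at 1 week, 144 and 153 at 2 weeks, 71.7 and 94.0 at 3 weeks, and 474 and 528 in GS cells. It rose by 2.04 ± 0.14 (adjusted p = 7.28e-07). Cxcl3 (0.41 ± 0.08) and Cxcl15 (0.40 ± 0.06) passed with small rises at signals of 92.9 and 78.9, against 69.8 and 59.6 at 0 weeks.

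The sequences before Cxcl1, Cxcl2 and Cxcl3 hold the same stretch of bases matching the NF-kB consensus at a similar distance from the start. The array changes of these 3 genes differed. The sequence of Cxcl1 is shown because it was among the ligands with the highest group means. Those of Cxcl2 and Cxcl3, and that of Ccl20, were added after the matches had been seen. Capitals mark the matches, which overlap on opposite strands. The 250 bases before each start are from RefSeq on GRCm38.p6, 5′ to 3′, at chr5:90890995-90891244 (plus strand), chr5:90903649-90903898 (plus strand) and chr5:90785851-90786100 (plus strand).
Cxcl1: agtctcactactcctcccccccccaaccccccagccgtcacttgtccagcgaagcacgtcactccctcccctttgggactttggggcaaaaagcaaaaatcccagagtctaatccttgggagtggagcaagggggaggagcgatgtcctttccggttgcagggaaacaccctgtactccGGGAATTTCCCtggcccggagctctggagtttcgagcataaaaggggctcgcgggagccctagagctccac
Cxcl2: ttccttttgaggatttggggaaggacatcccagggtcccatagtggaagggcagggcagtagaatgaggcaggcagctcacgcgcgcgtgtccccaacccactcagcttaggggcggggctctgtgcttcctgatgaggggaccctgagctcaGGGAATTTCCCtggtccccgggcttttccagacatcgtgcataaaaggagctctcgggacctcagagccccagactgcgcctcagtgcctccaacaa
Cxcl3: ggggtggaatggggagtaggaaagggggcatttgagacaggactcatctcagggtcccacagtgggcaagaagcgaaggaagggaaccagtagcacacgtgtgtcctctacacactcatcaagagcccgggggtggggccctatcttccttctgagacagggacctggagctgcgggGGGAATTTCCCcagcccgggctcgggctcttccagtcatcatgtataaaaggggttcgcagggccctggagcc
The matches began 71, 97 and 73 bases before the starts of Cxcl1, Cxcl2 and Cxcl3. A match is a string of letters and not a shown binding site.

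Monocyte and eosinophil attractants of the CC class gave several of the largest rises among the members. Ccl2, the main monocyte chemokine, read 182 and 195 at 0 weeks, 4078 and 4482 at 1 week, 695 and 732 at 2 weeks, 354 and 438 at 3 weeks, and 1997 and 2272 in GS cells. No 2 groups overlapped. It rose by 4.50 ± 0.11 in the first week (adjusted p = 3.59e-10). Ccl7, which also acts on Ccr2, read 132 and 112 at 0 weeks, 1643 and 1590.5 at 1 week, 480.4 and 467 at 2 weeks, 230.0 and 312 at 3 weeks, and 734 and 843 in GS cells. The order of its groups was that of Ccl2, again with no overlap, and its rise was 3.74 ± 0.14 (adjusted p = 5.73e-09). Ccl11, the eosinophil attractant eotaxin, read 195 and 183 at 0 weeks, 1451 and 1411 at 1 week, 291 and 301 at 2 weeks, 269 and 310.2 at 3 weeks, and 286 and 289 in GS cells. It rose by 2.92 ± 0.08 (adjusted p = 6.81e-10), and the 2 week and GS arrays lay within the range of the 3 week arrays. Ccl8 read 63.2 and 58.0 at 0 weeks, 332 and 353 at 1 week, 87.0 and 95.2 at 2 weeks, 81.2 and 69.2 at 3 weeks, and 107 and 103 in GS cells. It rose by 2.50 ± 0.09 (adjusted p = 5.8e-09). This is a lower bound, since its 0 week signals lay below the lower quartiles of those arrays (69.7 and 67.5).

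Ccl3, which attracts macrophages and T cells, read 1050.5 and 1279 at 0 weeks, 147 and 137 at 1 week, 93.5 and 97.8 at 2 weeks, 120.1 and 104 at 3 weeks, and 77.5 and 71.2 in GS cells. The sorted cells alone were high, and the fall was -3.03 ± 0.11 (adjusted p = 4.42e-09). Ccl4, its close relative, read 64.7 to 79.1 on the cultured arrays, against 79.3 and 82.9 at 0 weeks, with a change of -0.25 ± 0.07 at 1 week. Signals summed over 17 macrophage and monocyte markers were 1912 and 1956 at 1 week, against 2362 and 2526 at 0 weeks. Their part in the fall of Ccl3 was not tested. The sequence before the start of Ccl3 (RefSeq, GRCm38.p6, chr11:83649379-83649628, minus strand, 250 bases) is shown because Ccl3 was among the ligands with the highest group means. It holds no match to the motifs searched, so no base is in capitals.
Ccl3: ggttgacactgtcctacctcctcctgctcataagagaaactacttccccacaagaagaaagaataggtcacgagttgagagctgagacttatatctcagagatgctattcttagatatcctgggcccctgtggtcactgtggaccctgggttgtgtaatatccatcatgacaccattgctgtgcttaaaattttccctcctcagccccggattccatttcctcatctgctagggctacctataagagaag
That no match was found says only that these letters are not in this window.

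Of the ligands outside the groups above, Cxcl14, Cxcl12, Cxcl16 and Ccl20 also rose at least 2-fold. Cxcl14, made by many epithelia and by stroma, read 188 and 208 at 0 weeks, 2021 and 2002 at 1 week, 619 and 626 at 2 weeks, 183 and 362 at 3 weeks, and 692 and 641 in GS cells. It rose by 3.35 ± 0.24 (adjusted p = 7.86e-07), and the 3 week arrays stood apart from each other, one at the 0 week level and the other above it. Cxcl12, the ligand of Cxcr4, read 110.5 and 107 at 0 weeks, 473 and 482 at 1 week, 157 and 147 at 2 weeks, 106 and 96.7 at 3 weeks, and 137 and 119 in GS cells. Its rise was 2.13 ± 0.09 (adjusted p = 9.81e-09), and only the 1 week arrays were clearly high. Cxcl16, a membrane-bound ligand of Cxcr6, read 104 and 104 at 0 weeks, 295 and 306 at 1 week, 98.4 and 97.8 at 2 weeks, 91.9 and 94.8 at 3 weeks, and 118 and 109 in GS cells (1.54 ± 0.07, adjusted p = 1.65e-08). Ccl20, the ligand of Ccr6 on lymphocytes and dendritic cells, read 135 and 121 at 0 weeks, 479 and 597 at 1 week, 184 and 154 at 2 weeks, 159.8 and 162 at 3 weeks, and 211 and 222 in GS cells (2.07 ± 0.12, adjusted p = 1.47e-07).

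The sequences before the starts of Cxcl14 and Ccl20 each hold 1 match, of a different kind. That of Cxcl14 is shown because it was among the ligands with the highest group means. In Cxcl14 the capitals mark the interferon response core (GAAA, any 2 bases, GAAA), 172 bases before the start, and in Ccl20 the NF-kB consensus on the reverse strand, 80 bases before it. Both are 250 bases of RefSeq sequence on GRCm38.p6, at chr13:56296552-56296801 (minus strand) and chr1:83116516-83116765 (plus strand).
Cxcl14: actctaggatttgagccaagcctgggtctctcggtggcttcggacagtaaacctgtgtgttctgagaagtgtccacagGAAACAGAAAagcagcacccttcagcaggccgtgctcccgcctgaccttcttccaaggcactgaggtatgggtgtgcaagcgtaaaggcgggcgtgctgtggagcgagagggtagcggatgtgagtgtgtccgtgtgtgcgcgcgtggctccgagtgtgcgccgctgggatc
Ccl20: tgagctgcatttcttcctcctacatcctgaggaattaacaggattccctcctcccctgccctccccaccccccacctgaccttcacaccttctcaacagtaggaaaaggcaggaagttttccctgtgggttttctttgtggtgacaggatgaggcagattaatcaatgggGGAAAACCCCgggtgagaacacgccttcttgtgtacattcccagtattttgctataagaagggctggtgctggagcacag
The table used held a sequence of this kind for 38 of the 52 members, and none is shown for Ccl2, Ccl7, Ccl11 and Cxcl5.

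**Figure D3:**
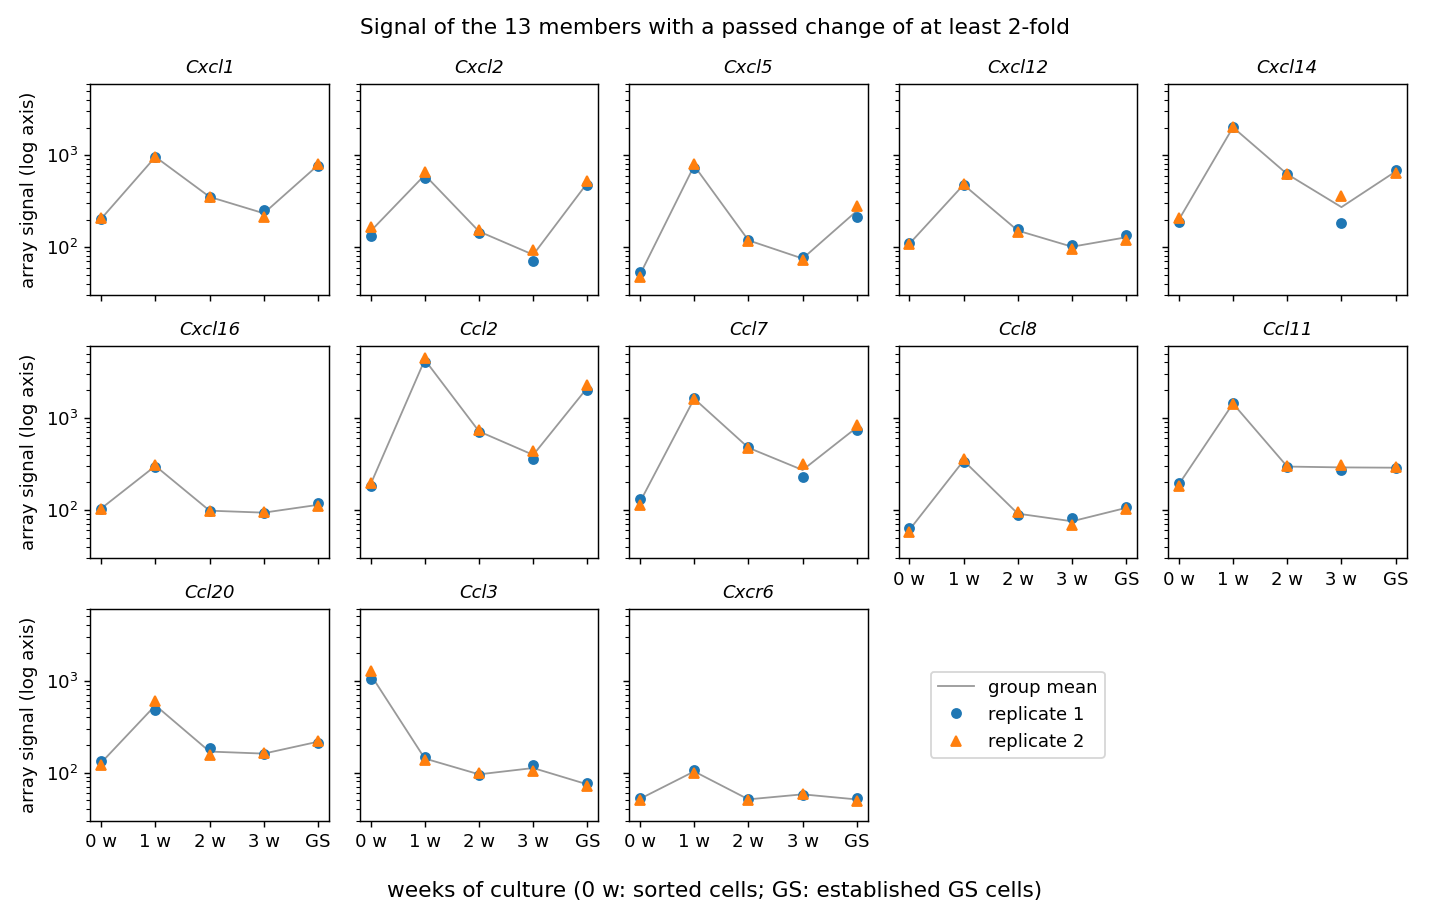
Signals of the 13 members with a passed change of at least 2-fold, on a log axis, for each of the 10 arrays, with a circle for replicate 1, a triangle for replicate 2 and a grey line through the group means. The 11 first-week ligands peak at 1 week, Ccl3 is high at 0 weeks alone, and the receptor Cxcr6 has a small peak at 1 week.

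Smaller rises in the first week were found in 7 further ligands, Cxcl3 and Cxcl15 among them. Ccl25, a ligand of Ccr9, read 173 and 171 at 1 week, against 101 and 109 at 0 weeks (0.72 ± 0.09). Ccl6 and Ccl9, ligands of Ccr1 in the mouse, rose by 0.65 ± 0.08 and 0.59 ± 0.08, and Ccl5 by 0.38 ± 0.07. Of the ligands of Cxcr3, Cxcl10 read 205 and 235 at 1 week, against 123 and 139 at 0 weeks (0.75 ± 0.11, adjusted p = 0.000219). Cxcl9 and Cxcl11 did not pass in that comparison (-0.05 ± 0.09 and -0.14 ± 0.09), at signals of 93.6 and 54.0. Ccl12, Ccl28 and Ccl1 stayed within 42.9 to 70.3 on all arrays.

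Fibroblast markers moved with this rise. All 18 were higher at 1 week than at 0 weeks, with a median change of 3.10, and their summed signal was 64376 and 65301 at 1 week, against 8770 and 9921 at 0 weeks. Of 17 macrophage and monocyte markers 4 were higher and 9 lower, and of 10 endothelial markers 1 was higher and 6 lower. Of 12 markers of dendritic cells and granulocytes 2 were higher and 3 lower, while 30.3% of all genes were higher and 27.5% lower. The endothelial sum was yet higher at 1 week (1679 and 1688, against 1269.5 and 1299 at 0 weeks). So was the sum for dendritic cells and granulocytes (1501 and 1567, against 1191 and 1199). Markers of lymphocytes and NK cells summed to 1112 and 1257 at 1 week, against 1136 and 1208 at 0 weeks. Peritubular myoid and smooth muscle markers summed to 10796 and 11381, against 9008 and 10434, with 1 of 8 higher and 4 lower. General germ cell markers summed to 2605 and 2855, against 14639 and 14684, with 8 of 9 lower. Sertoli cell markers summed to 1690 and 1700, against 3676 and 3856, and Leydig cell markers to 724 and 732, against 7067 and 7078. No marker had a group mean of 0. The part of these cells in the ligand signals was not tested, and in cultures measured in bulk a change in the number of cells of a type cannot be told apart from a change of RNA per cell.

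**Figure D4:**
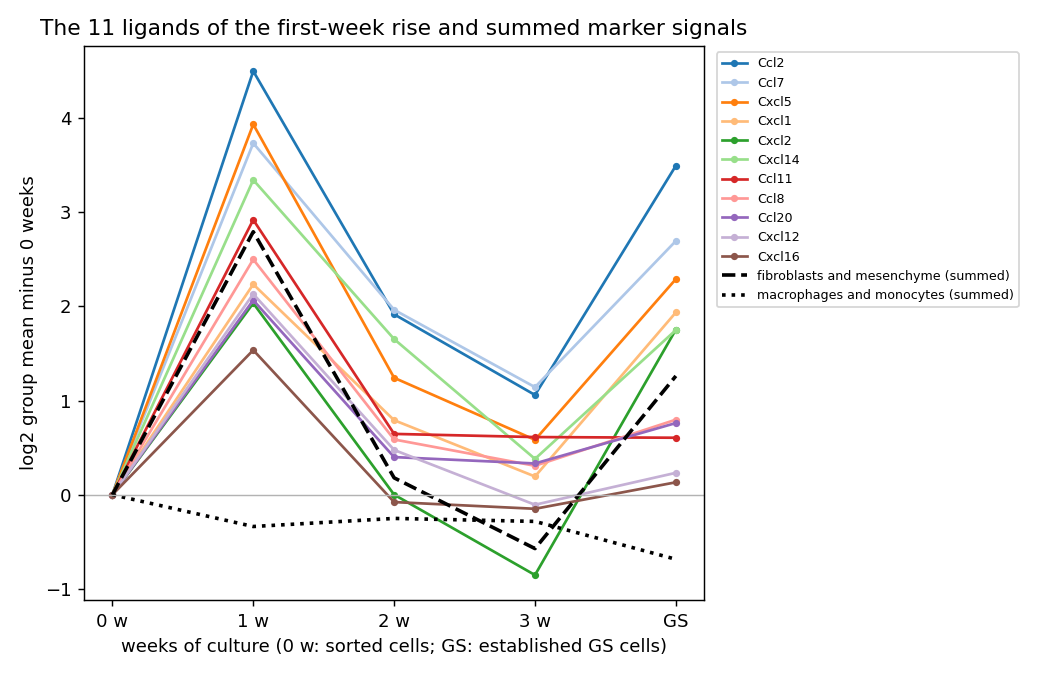
Log2 group means relative to 0 weeks for the 11 ligands that rose at least 2-fold in the first week, with the summed signal of 18 fibroblast and mesenchyme markers (dashed) and of 17 macrophage and monocyte markers (dotted). The ligands and the fibroblast sum are high at 1 week, low at 3 weeks and higher again in GS cells, except Ccl11, which stays level after 2 weeks, while the macrophage sum is lower in all cultures than at 0 weeks.

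In the second week the ligands of the first-week rise fell back. At 2 weeks 3 members were higher and 21 lower than at 1 week, while 25.6% of all genes were higher and 25.2% lower. Falls of at least 2-fold were found in 12 members (23.1%, against 9.64% of all genes), and no member rose that far (3.92% of all genes did). The 12 were the 11 ligands of the first-week rise and the receptor gene Cxcr6. The log2 change was -2.69 ± 0.13 for Cxcl5, -2.58 ± 0.11 for Ccl2, -2.27 ± 0.08 for Ccl11, -2.03 ± 0.14 for Cxcl2 and -1.91 ± 0.09 for Ccl8 (adjusted p = 9.56e-08, 4.2e-08, 1.31e-08, 1.35e-06 and 9.73e-08). Ccl7, Cxcl14, Ccl20, Cxcl12, Cxcl16 and Cxcl1 changed by -1.77 to -1.44. The 3 members that were higher, Cxcr1, Ccl17 and Xcr1, changed by 0.28 to 0.45. Without the second 1 week array or the second 2 week array 1 member was higher, and without either GS array 5 were. The summed fibroblast markers were 10543 and 10625 at 2 weeks, against 64376 and 65301 at 1 week. All 18 of these markers were lower. Peritubular myoid and smooth muscle markers summed to 1494 and 1559 at 2 weeks, against 10796 and 11381 at 1 week, and 7 of 8 were lower. General germ cell markers summed to 13051 and 13296, against 2605 and 2855 (9 of 9 higher), and those of undifferentiated spermatogonia to 12687 and 12757, against 4931 and 5039 (17 of 20 higher). The part of these cells in the ligand signals was not tested.

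In the third week part of the ligands fell further. At 3 weeks 5 members were higher and 7 lower than at 2 weeks, while 7.71% of all genes were higher and 16.5% lower. Median scaling gave 4 higher and 9 lower, and among all genes called the share that was higher was 20.8% with median scaling and 50.7% with cyclic loess scaling, against 31.9% as deposited. The 7 that fell were all among the first-week risers: Cxcl14 (-1.27 ± 0.24), Ccl2 (-0.86 ± 0.11), Cxcl2 (-0.85 ± 0.14), Ccl7 (-0.82 ± 0.14), Cxcl5 (-0.66 ± 0.13), Cxcl1 (-0.60 ± 0.08) and Cxcl12 (-0.58 ± 0.09). Their adjusted p was 0.000855 to 0.00649. The 3 week signals of Cxcl2 and Cxcl5 lay around the array quartile, so the sizes of their falls are lower bounds. Of these, Cxcl14 was the 1 member past 2-fold (1.92% of the members, against 0.654% of all genes), and its 3 week arrays were 183 and 362. Cxcl5 lost its call without the first 2 week array (-0.63, adjusted p = 0.0553). Cxcl16, Ccl11, Ccl20 and Ccl8 did not pass (-0.07, -0.03, -0.07 and -0.28). Ccl8 was called lower with quantile (-0.42, adjusted p = 0.005), median (-0.35, adjusted p = 0.0157) and cyclic loess scaling (-0.35, adjusted p = 0.0302), with the filter on dim genes (adjusted p = 0.0492) and without the first 3 week array (-0.40, adjusted p = 0.0325). No member rose at least 2-fold (0.0545% of all genes did). The 5 that rose, Cxcl17, Ccr7, Cxcl9, Ccr1l1 and Ccr2, changed by 0.26 to 0.39. That count was 0 or 1 without the first or second 2 week array, 3 without the first 3 week array and 9 without either GS array. Summed fibroblast markers were 5550 and 7022 at 3 weeks, against 10543 and 10625 at 2 weeks. Peritubular myoid and smooth muscle markers summed to 957 and 1213, against 1494 and 1559. Those of undifferentiated spermatogonia summed to 9575 and 9775, against 12687 and 12757. The endothelial sum was lower too. Sums for Sertoli cells, Leydig cells, lymphocytes and NK cells, and dendritic cells and granulocytes were higher. The part of these cells in the ligand signals was not tested.

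Established GS cells had higher signals than 3 week cultures for part of the same ligands. In GS cells 11 members were higher and 18 lower than at 3 weeks, while 29.9% of all genes were higher and 17.2% lower. Rises of at least 2-fold were found in 6 ligands (11.5% of the members, against 3.57% of all genes): Cxcl2 (2.61 ± 0.14), Ccl2 (2.44 ± 0.11), Cxcl1 (1.74 ± 0.08), Cxcl5 (1.71 ± 0.13), Ccl7 (1.55 ± 0.14) and Cxcl14 (1.37 ± 0.24). Their adjusted p was 5.12e-07 to 0.00118. In each of the 6, both GS arrays lay above both 3 week arrays. The 3 week signals of Cxcl2 (71.7 and 94.0) and Cxcl5 (78.8 and 71.9) lay around the array quartile. Their rises are therefore lower bounds. Ccl8 (0.49 ± 0.09), Ccl20 (0.43 ± 0.12), Cxcl12 (0.34 ± 0.09) and Cxcl16 (0.28 ± 0.07) rose less. The call of Ccl20 was lost without the first 3 week array (0.42, adjusted p = 0.0639) or the second GS array (0.39, adjusted p = 0.0616), and that of Cxcl12 without the second 3 week array (0.27, adjusted p = 0.0579). With only the 2 groups fitted the calls of Cxcl12 (adjusted p = 0.0588) and Cxcl16 (adjusted p = 0.0651) were lost. Ccl11 did not pass (-0.01 ± 0.08), but was called lower with quantile scaling (-0.23, adjusted p = 0.0331) and cyclic loess scaling (-0.32, adjusted p = 0.00514), and the call of Ccl20 was lost with cyclic loess scaling (0.24, adjusted p = 0.157).

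The 11 ligands differed in how near GS cells came to the 1 week signal. The GS mean was 82.3% of the 1 week mean for Cxcl2, 81.3% for Cxcl1, 49.9% for Ccl2 and 48.8% for Ccl7. It was 40.2% for Ccl20, 37.8% for Cxcl16, 33.1% for Cxcl14, 32.3% for Cxcl5, 30.7% for Ccl8, 26.9% for Cxcl12 and 20.1% for Ccl11. These shares were not tested, and they include the array background, which weighs more on dim members. Summed fibroblast markers were 21192 and 23629 in GS cells, against 5550 and 7022 at 3 weeks and 64376 and 65301 at 1 week. All 18 of these markers were higher in GS cells than at 3 weeks, with a median change of 1.43. Peritubular myoid and smooth muscle markers summed to 3039 and 3121 in GS cells, against 957 and 1213 at 3 weeks (5 of 8 higher). Endothelial markers summed to 1372 and 1480.5, against 1070 and 1114. Those of undifferentiated spermatogonia summed to 14302 and 14307, against 9575 and 9775. The Sertoli cell sum was higher too, and the macrophage and Leydig cell sums were lower. The part of all these cells in the ligand signals was not tested, and whether feeder cells were present with the GS cells is not stated.

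The 18 members lower in GS cells than at 3 weeks included none with a fall of at least 2-fold (0.972% of all genes had one). The largest fall was that of Ccl6, which held 126 and 126 at 1 week, 136 and 136 at 2 weeks and 135 and 139 at 3 weeks, and read 81.6 and 69.8 in GS cells, close to its 0 week signals of 80.5 and 80.6. Its change was -0.86 ± 0.08 (adjusted p = 2.4e-05). Ccl6 thus stayed level from 1 to 3 weeks and was lower in the established line. Ccl3 changed by -0.59 ± 0.11, Cxcl9 by -0.55 ± 0.09 and Cxcl17 by -0.55 ± 0.12. The GS signals of Ccl6 and Ccl3 lay around the array quartile, so the sizes of their falls are lower bounds. The summed macrophage and monocyte markers were 1473 and 1566 in GS cells, against 1902 and 2114 at 3 weeks.

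From one end of the series to the other, 13 members were higher and 5 lower in GS cells than in 0 week cells, while 30.8% of all genes were higher and 20.4% lower. Cyclic loess scaling gave 12 higher and 8 lower, and among all genes called 46.6% were then higher, against 60.2% as deposited. Changes of at least 2-fold were found upwards in 6 members (11.5%, against 9.06% of all genes) and downwards in 1 (1.92%, against 8.68%). The 6 were Ccl2 (3.50 ± 0.11), Ccl7 (2.70 ± 0.14), Cxcl5 (2.29 ± 0.13, a lower bound as in the first week), Cxcl1 (1.94 ± 0.08), Cxcl2 (1.75 ± 0.14) and Cxcl14 (1.75 ± 0.24), with adjusted p of 2.72e-09 to 0.000128. Ccl3 was the 1 that fell (-3.96 ± 0.11, adjusted p = 9.61e-10). Its GS signals (77.5 and 71.2) lay around the array quartile, so the size of this fall is a lower bound. Ccl8, Ccl20 and Ccl11 were higher by 0.80 ± 0.09, 0.76 ± 0.12 and 0.61 ± 0.08, the first of these being a lower bound too. Cxcl12 passed by little (0.23 ± 0.09, adjusted p = 0.0441) and lost its call with cyclic loess scaling (0.09, adjusted p = 0.322) and when any of 7 arrays was left out, with adjusted p up to 0.26 without the first GS array. Falls other than that of Ccl3 were -0.25 to -0.52, and the count of 5 was 2 without the second 0 week or the second GS array and 9 without the first GS array. In the authors' deposited table, which compares 3 weeks with 0 weeks, the ratio was 2.08 for Ccl2, 2.21 for Ccl7 and 0.0963 for Ccl3.

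Most receptors were dim on these arrays or changed little. Of 19 receptors 5 exceeded the highest array median in any group, namely Cx3cr1, Ccr7, Cxcr4, Ccr10 and Cxcr3. Cxcr2, the receptor of Cxcl1, Cxcl2 and Cxcl5, read 37.2 to 41.1 on all arrays (F-test adjusted p = 0.998). Ccr2, the receptor of Ccl2 and Ccl7, read 38.4 to 50.9. Ccr3, the receptor of Ccl11, read 47.3 to 69.8, and Ccr6, the receptor of Ccl20, read 50.1 to 61.4. All of these lie below the array quartile or around it, so neither presence nor absence of these receptors is shown. Cxcr6, the receptor of Cxcl16, was the 1 receptor with a change of at least 2-fold. It read 53.5 and 50.1 at 0 weeks, 107 and 98.9 at 1 week, 51.9 and 50.4 at 2 weeks, 57.5 and 58.5 at 3 weeks, and 53.0 and 49.1 in GS cells. Its change was 0.99 ± 0.07 at 1 week and -1.01 ± 0.07 at 2 weeks (adjusted p = 1.06e-06 and 1.68e-06). Its 1 week signals lay below the medians of those arrays (115.8 and 112) and the others below the array quartile. Both sizes are therefore lower bounds. On the clusters used, Cxcl16 and Cxcr6 were both highest at 1 week. A cluster naming Cxcl16 together with another gene went the other way (96.0 at 1 week, against 461 at 0 weeks).

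Cxcr4, the receptor of Cxcl12 on germ cells and many others, read 154 and 159 at 0 weeks, 166 and 159 at 1 week, 166 and 145 at 2 weeks, 174 and 143 at 3 weeks, and 299 and 231 in GS cells. Both GS arrays were above all others. It was higher in GS cells than at 3 weeks by 0.74 ± 0.13 (adjusted p = 0.0014) and did not pass in the 3 steps before. Cxcr7, now named Ackr3, which scavenges Cxcl12, read 80.0 and 83.4 at 1 week and 63.6 to 71.8 elsewhere (0.21 ± 0.07 at 1 week). Cx3cr1, the fractalkine receptor of monocytes and macrophages, read 206 and 175 at 1 week, against 286 and 273 at 0 weeks (-0.55 ± 0.11, adjusted p = 0.0014), and its ligand Cx3cl1 read 255 and 212, against 203 and 218 (0.15 ± 0.13, not passing). Ccr7, the homing receptor of lymphocytes and dendritic cells, was highest at 3 weeks, at 224 and 226, against 168 and 177 at 2 weeks (0.39 ± 0.08). No match to a searched motif lies in the 250 bases before Cxcr4 and Cx3cr1 (RefSeq, GRCm38.p6, chr1:128592300-128592549 and chr9:120068297-120068546, both minus strand), chosen as the receptors with the brightest group means.
Cxcr4: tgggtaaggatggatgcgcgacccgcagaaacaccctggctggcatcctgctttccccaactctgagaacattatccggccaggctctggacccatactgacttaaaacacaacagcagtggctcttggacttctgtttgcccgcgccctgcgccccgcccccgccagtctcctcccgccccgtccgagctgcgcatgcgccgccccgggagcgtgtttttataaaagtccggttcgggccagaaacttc
Cx3cr1: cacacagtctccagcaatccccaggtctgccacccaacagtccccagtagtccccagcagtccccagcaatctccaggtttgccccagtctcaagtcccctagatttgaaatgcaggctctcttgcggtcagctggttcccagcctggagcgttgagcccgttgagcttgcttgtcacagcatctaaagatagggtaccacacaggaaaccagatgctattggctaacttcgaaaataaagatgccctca

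Other genes of the chemokine pathway moved in both directions. Their list holds scavenging receptors, G protein subunits, receptor kinases, arrestins, matrix partners and ligands with other names, such as Ppbp and Pf4. Of 28 measured, 14 were higher and 7 lower at 1 week than at 0 weeks (30.3% and 27.5% of all genes), so the share that fell is near the background. Rgs16, which switches off G protein signals of chemokine receptors, averaged 1681 at 1 week, against 186 at 0 weeks (3.18 ± 0.10), and 825 in GS cells, against 262 at 3 weeks (1.66 ± 0.10). Sdc1, a heparan sulfate proteoglycan that binds chemokines, changed by 2.78 ± 0.12 at 1 week and by -2.24 ± 0.12 at 2 weeks. Ppbp and Pf4 are CXC ligands outside the naming rule of the members. Ppbp averaged 451 at 1 week, against 108 at 0 weeks (2.07 ± 0.10), and changed by -1.76 ± 0.10 at 2 weeks. Pf4 changed by 0.44 ± 0.11 and -0.46 ± 0.11 at these steps. In the second week 4 were higher and 15 lower (25.6% and 25.2% of all genes), with Arrb2, an arrestin, at 1.35 ± 0.09 and Pik3cd at 1.08 ± 0.09. In GS cells against 3 weeks 12 were higher and 2 lower (29.9% and 17.2% of all genes), including Arrb1 at 1.21 ± 0.08. Elmo1 and Grk3, which act in cell migration and in receptor desensitization, fell in the first week (-1.11 ± 0.07 and -0.995 ± 0.08). Their 1 week means (61.0 and 69.9) lay around the array quartile, so the sizes of these falls are lower bounds.

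Genes of NF-kB and inflammatory cytokine signalling followed the course of most of the 11 ligands picked for their first-week rise, not that of the ligands as a whole. Over all 33 ligands the median change was 0.03 at 3 weeks. It was -0.12 in GS cells against 3 weeks, with 10 ligands higher and 12 lower. At 1 week 27 of 33 were higher and 3 lower than at 0 weeks (median 0.93, against -0.04 over all genes), at 2 weeks 26 were lower and 7 did not pass (median -0.75), and at 3 weeks 13 were lower and 20 did not pass (median -0.13). In GS cells 20 were higher than at 3 weeks and 13 did not pass (median 0.43). Among all genes 30.3% were higher at 1 week, 25.2% lower at 2 weeks, 16.5% lower at 3 weeks and 29.9% higher in GS cells than at 3 weeks. Il6, an inflammatory cytokine, averaged 994 at 1 week, against 37.8 at 0 weeks (4.71 ± 0.24, a lower bound, since that 0 week mean is not shown to be above background), and Csf1, the macrophage growth factor, 3591, against 212 (4.08 ± 0.13). Both fell in the second week (-4.23 ± 0.24, again a bound for Il6, and -3.92 ± 0.13). In GS cells Csf1 averaged 1156 and Nfkbia, the NF-kB inhibitor induced by NF-kB itself, 1170, against 205 and 266 at 3 weeks (2.49 ± 0.13 and 2.14 ± 0.09). Tnf was lower at 1 week than at 0 weeks (-0.92 ± 0.14), as Ccl3 was. The 1 week mean of Tnf (66.5) lay around the array quartile, so the size of its fall is a lower bound. Of 24 genes of interferon signalling 19 were higher and 2 lower at 1 week, led by the receptor genes Ifnar2 (2.92 ± 0.16) and Ifngr2 (2.16 ± 0.08), while 30.3% of all genes were higher and 27.5% lower. In the second week 5 of the 24 were higher and 12 lower (25.6% and 25.2% of all genes). Gbp2 and Gbp3, targets of interferon, had the largest rises (1.44 ± 0.09 and 1.41 ± 0.10) after smaller ones in the first week (0.61 and 0.28), while other targets such as Ifit1 (-1.06), Isg15 (-0.65) and Irf7 (-0.59) fell. Of the chemokines induced by interferon, Cxcl10 fell in that week (-0.46 ± 0.11) and Cxcl9 did not pass (0.05 ± 0.09).

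Many members lie beside each other on the chromosome, in runs in which neighbouring members are at most 10 protein-coding genes apart in the GRCm38.p6 gene order. In the run of Ccl2, Ccl7, Ccl11, Ccl12, Ccl8 and Ccl1, 4 of 6 rose in the first week and Ccl12 and Ccl1 did not pass (-0.03 and -0.15). In the neighbouring run, Ccl5, Ccl9 and Ccl6 rose by 0.38 to 0.65, while Ccl3 and Ccl4 at its end fell. All 5 members of the run of Cxcl5, Cxcl3, Cxcl15, Cxcl1 and Cxcl2 rose, by 0.40 to 3.94. Of 7 members in a run of receptors, 2 rose, Cxcr6 and Ccr1, and 2 fell, Xcr1 and Ccr2. Changes thus differed widely between neighbouring members.

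**Figure D5:**
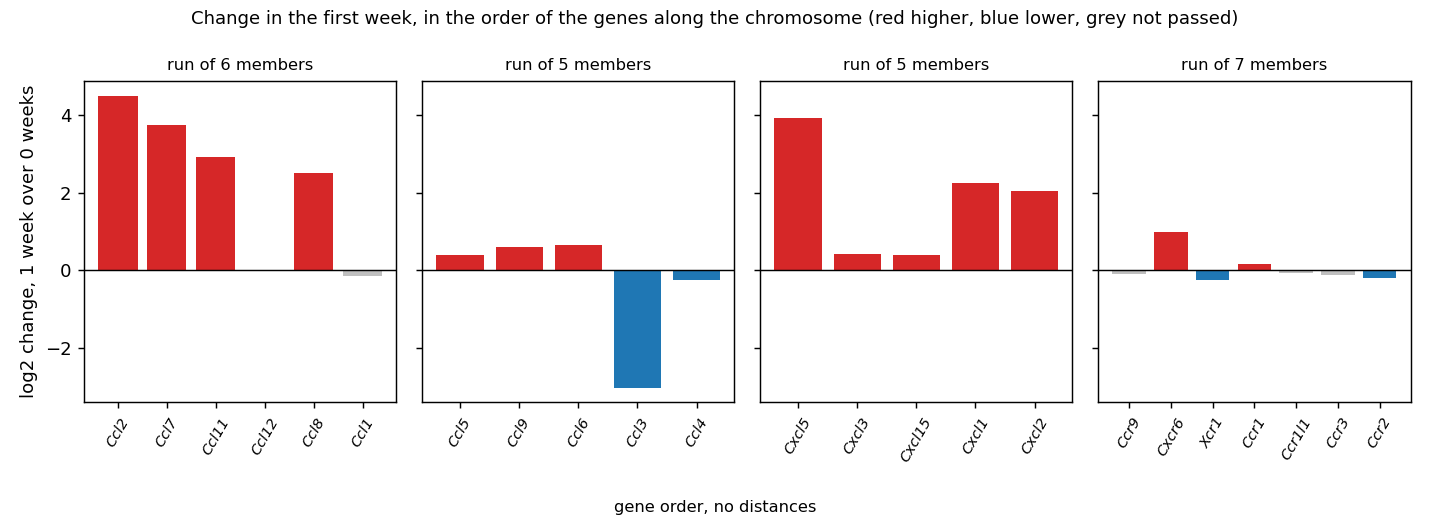
Bars give the log2 change of 1 week over 0 weeks for the members of the 4 runs that hold at least 5 members, in chromosome order without distances, red for a rise that passed, blue for a fall that passed and grey for neither. Ccl12, at -0.03, stands between Ccl11 at 2.92 and Ccl8 at 2.50, and Ccl3, at -3.03, stands beside Ccl6 at 0.65.

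The 3 motifs were searched on both strands in the 250 bases before the start. The NF-kB consensus was found in 7 of the 38 members with a sequence (18.4%), against 3.75% of 27025 genes in the table, namely Cxcl1, Cxcl2, Cxcl3, Cxcl10, Ccl20, Ccl9 and Ccr3. The interferon response core was found in 2 members (5.26%, against 3.04%), Cxcl10 and Cxcl14, and the AP-1 site TGANTCA in 4 (10.5%, against 6.87%). Of the 11 ligands with a first-week rise of at least 2-fold, 6 had a sequence, and 3 of these held the NF-kB consensus. Matches to the NF-kB consensus also stood before Cxcl3, which rose by 0.41, and Ccr3, which did not pass in the first week.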

How the data were processed

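RNA of 10 samples was hybridized to 1-colour Affymetrix Mouse Gene 1.0 ST arrays, per the authors' table header and the labels. The deposited values are array intensity per transcript cluster on a linear scale, and how background, probe summaries and scaling were handled is not given in the sources used here. A deposited table of the authors holds 0 and 3 week group means and their ratio, and its means equal the geometric means of the deposited intensities. Of 28856 clusters, 22439 have 1 symbol in the platform annotation, 2815 several and 3602 none. Each of 20174 genes was represented by its brightest 1-symbol cluster. Values were put at a floor of 1 and taken as log2. The deposited scaling was kept. All 5 groups entered 1 limma fit (limma 3.58.1, R 4.3.3) with 5 contrasts and an F-test, Benjamini-Hochberg adjustment over all genes and a threshold of 0.05. Errors are the moderated standard errors of the fit. The fit was tested on simulated data. The members and gene lists were chosen with earlier results of these data known. Every member could be named. Values of all arrays were given for members with a passed change of at least 2-fold, and of each pathway list the 2 largest rises and falls per contrast could be named. A few further genes of these lists were named with the results known. Promoter sequences are from RefSeq (GRCm38.p6). Alternatives were 3 scalings, a filter on dim genes, a floor of 50, averaging clusters, other variance settings, a replicate block and leaving out each array.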

Additional observations from a re-analysis of the deposited data

How the results depend on the processing

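The 38 passed changes of at least 2-fold kept their direction and their pass in all 721 values over 19 settings, Cxcr6 being absent under the filter on dim genes. Among the other values no sign of a called change turned. The 38 were picked as large passed changes of the main fit, so the 721 values are not independent checks. Averaging clusters, or leaving out an array outside the 2 groups compared, hardly touches them. Whether they stayed at least 2-fold was not counted. Counts of small changes moved more. Lower members at 1 week against 0 weeks (9) numbered 4 with quantile scaling, 3 with median scaling, 4 with the filter on dim genes (mean signal of 100) and 5 with a floor of 50. Higher members at 2 weeks against 1 week (3) numbered 1 with the dim filter, 1 with the floor of 50 and 5 with only the 2 groups fitted. With the dim filter 2 members were higher at 3 weeks against 2 weeks, 7 lower in GS cells against 3 weeks and 22 different by the F-test, since only part of the members entered. With only the 2 groups fitted 11 were lower in GS cells against 3 weeks, and with cyclic loess 8 were lower in GS cells against 0 weeks. Where not shown by the setting's construction, the cause was not tested. Requiring at least 2-fold left 11 higher and 1 lower at 1 week, 0 and 12 at 2 weeks, 0 and 1 at 3 weeks, 6 and 0 in GS cells against 3 weeks, and 6 and 1 against 0 weeks. Leaving out single arrays gave 19 to 21 higher and 3 to 10 lower at 1 week, 1 to 5 and 18 to 22 at 2 weeks, 0 to 9 and 6 to 8 at 3 weeks, 10 to 11 and 12 to 23 in GS cells against 3 weeks, 10 to 13 and 2 to 9 against 0 weeks, and 33 to 38 by the F-test. A lone remaining array was assumed to vary like the other groups. With the replicate number as a block 5 members were higher at 2 weeks and 8 at 3 weeks. With that block 23 were lower in GS cells against 3 weeks, where the main fit had 18. Deviations of same-numbered arrays correlated at -0.067 to 0.584 over 10 pairs of groups, 6 of them above 0.1. The labels give a replicate number only, and the main fit left it out. Whether same-numbered arrays share a batch or a culture was not tested. The median change of all genes at 1 week was 0.07 with median scaling, against -0.04 as deposited. Signals near the array quartile limit what can be said of most receptors.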

Other observations

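Several chemokine names stand only on clusters that carry other symbols too and were not tested. A cluster naming Cxcl16 together with another gene averaged 96.0 at 1 week, against 461 at 0 weeks, opposite to the cluster of Cxcl16 alone (300.4 at 1 week, against 104 at 0 weeks). Clusters naming Ccl27a among other genes averaged 193 to 272 at 1 week, against 409 to 1713 at 0 weeks. Clusters naming Ccl19 and the Ccl21 genes stayed between 82.9 and 174.6 on all arrays. The second cluster of Ccl25 read 97.4 and 131 at 1 week, against 86.9 and 85.3 at 0 weeks.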
